A study of Mus musculus with 48 samples.

Results

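Chemokine receptors of the CXC, CX3C and XC families were measured in mouse co-cultures of glatiramer acetate-responsive T cells and splenocytes. The receptors are Cxcr1, Cxcr2, Cxcr3, Cxcr4, Cxcr5, Cxcr6, Cx3cr1 and Xcr1, taken by gene symbol from the probe annotation. No cut on measured values picked them, but earlier results of these data were known when they were chosen. These 8 of 22485 measured gene symbols have 10 of 39430 probes, with a pair each for Cxcr6 and Cx3cr1 and a single probe for every other receptor. By their RefSeq records, Cxcr1, Cxcr2 and Cxcr4 lie on chromosome 1, Cxcr3 on chromosome X, and Cxcr5, Cxcr6, Cx3cr1 and Xcr1 on chromosome 9.

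Chemokine receptors are G protein-coupled receptors that steer leukocytes along gradients of small secreted proteins, the chemokines. Each receptor binds one or a few ligands and is carried by particular cells, so a change in receptor RNA in a mixed culture can come from several cell types. Cxcr3 is known from activated Th1 cells and NK cells, Cxcr4 from most leukocytes, Cxcr5 from B cells and follicular helper T cells, Cxcr6 from activated T cells, Cxcr1 and Cxcr2 from neutrophils, Cx3cr1 from monocytes and macrophages, and Xcr1 from cross-presenting dendritic cells.

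Every well held Th2-455 cells with naive Balb/c splenocytes as antigen-presenting cells, 5 splenocytes per T cell, for 24 h. Th2-455 is a nonclonal line of CD4+ T cells that were taken from female Balb/c mice of 8 to 12 weeks immunized with Copaxone and restimulated with it for 13 rounds, so all groups, the media-only control included, share that history. ACN is a glatiramoid that, by the paper, matches glatiramer acetate in amino acid composition and molecular weight distribution but is distinct in structure. It was tested in 8 wells from 1 lot, Glatopa (generic glatiramer acetate) in 16 wells from 4 lots and Copaxone (brand glatiramer acetate) in 17 wells from 9 lots, each at 20 µg/mL. The media-only control (Media) had 7 wells, which received mannitol and no glatiramoid.

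The labels call the samples CD4+ T cells, but all cells of a well were harvested together. Markers of T cells and of B cells were present. The T cell marker Cd3d averaged 9.00 on the log2 scale with Copaxone and 9.75 in Media. The B cell marker Ms4a1 averaged 11.41 with Copaxone and 10.44 in Media. The paper describes T cell depletion for the splenocytes used to raise the line, and none for the splenocytes of these wells. T cell markers such as Cd3d therefore cannot tell the line from T cells among the splenocytes. The Cd4 probe stayed at 5.12 with Copaxone and 5.17 in Media, close to the array medians of 4.95 to 5.02. Values are log2 intensities after background correction and quantile normalization, so a difference is relative to the bulk of the probes, and the number of arrays limits the precision. A probe was called where its limma p, two-sided and adjusted with Benjamini-Hochberg over all 39430 probes, was under 0.05. The labels name wells and lots but no separate cultures or animals, so p-values measure the spread between wells, and for ACN the spread within a single lot. The 3 comparisons with Media use the same 7 Media wells. On the first component of the within-group deviations, which holds 12.0% of their variance, 4 arrays stood apart with scores above 0.3: ACN replicate 2 and replicate 1 of Copaxone lots 3, 7 and 9.

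All receptor probes called against Media were lower with treatment. With ACN, 2 of the 10 probes were called (Cxcr3 and Cxcr5), against a background of 7.08% of all probes called and 3.36% called lower. With Glatopa, 3 were called (Cxcr3, Cxcr4 and Cxcr5), against 18.9% of all probes called and 8.56% called lower. With Copaxone, 4 were called (Cxcr1, Cxcr3, Cxcr4 and Cxcr5), against 16.2% of all probes called and 7.46% called lower. The split over all probes moved with the scaling. Of the probes called, 52.6% were higher with ACN, 54.7% with Glatopa and 53.9% with Copaxone, and after cyclic loess 41.1%, 45.6% and 42.3%. The receptors stayed lower after cyclic loess, but the Cxcr1 call with Copaxone was lost (-0.20, limma adjusted p = 0.0512). The median log2 difference of the 10 receptor probes from Media was -0.04 with ACN, -0.06 with Glatopa and -0.06 with Copaxone, and that of all probes was -0.0047, -0.0041 and -0.0034 for the same treatments in that order. The plot of differences from Media shows the widest called differences at Cxcr3, Cxcr4 and Cxcr5, with the other receptors but Cxcr1 spread on both sides of 0.

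**Figure D1:**
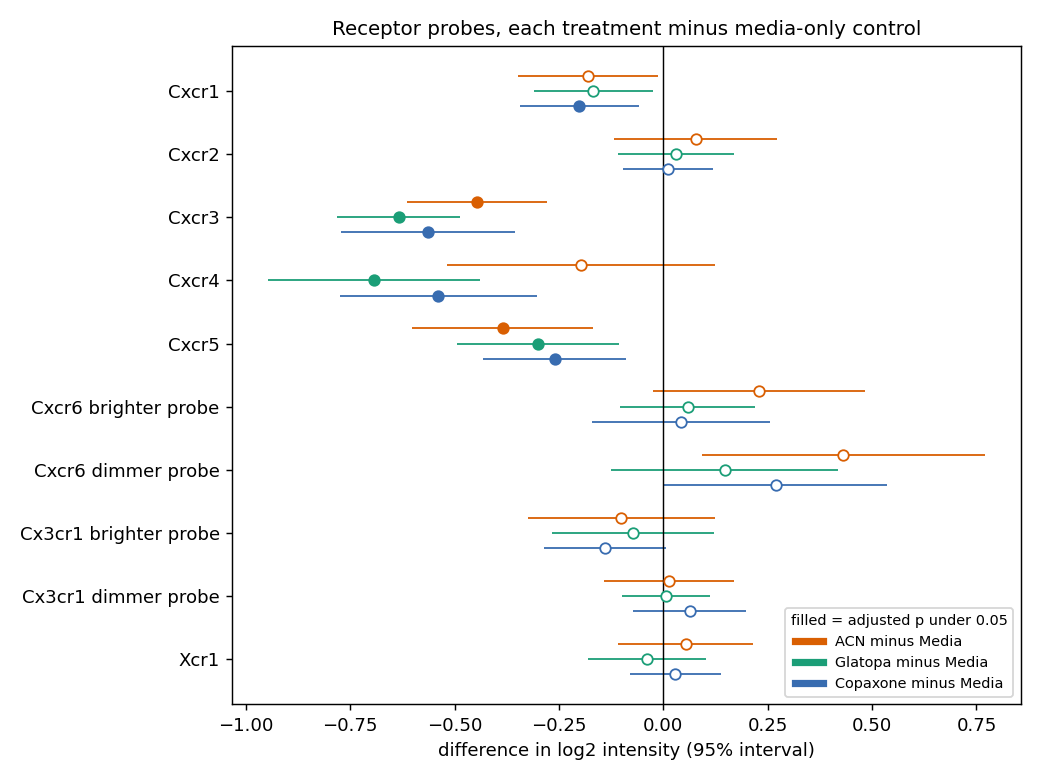
Difference in log2 intensity of each receptor probe between each treatment and the media-only control, treatment minus Media, with 95% intervals; filled points have an adjusted p under 0.05. Cxcr3 and Cxcr5 lie left of 0 with all 3 treatments, Cxcr4 is filled with Glatopa (-0.69) and Copaxone (-0.54) and open with ACN (-0.20), and no filled point lies right of 0.

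Cxcr3, the receptor of the interferon-induced chemokines Cxcl9, Cxcl10 and Cxcl11, fell with all 3 treatments. Its lowest, median and highest log2 values were 6.29, 6.54 and 6.73 in ACN wells, 5.94, 6.41 and 6.51 in Glatopa wells, 5.86, 6.40 and 6.84 in Copaxone wells, and 6.70, 7.04 and 7.15 in Media wells. The Glatopa wells did not overlap the Media wells, whereas 1 of 8 ACN wells and 3 of 17 Copaxone wells reached into the Media range. Over all probes the groups did not overlap for 3.71% with Glatopa, 2.3% with ACN and 2.52% with Copaxone, and Cxcr3 with Glatopa was the only such receptor probe. A mixed RNA sample cannot tell fewer cells of a type from less RNA per cell, here or for any receptor below.

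Relative to Media, the log2 difference of Cxcr3 was -0.45 with ACN (SE 0.08, 1.36-fold lower, adjusted p = 0.00167), -0.63 with Glatopa (SE 0.07, 1.55-fold lower, adjusted p = 2.04e-07) and -0.56 with Copaxone (SE 0.10, 1.48-fold lower, adjusted p = 0.000171). Of the 3 high Copaxone wells, 2 (replicate 1 of lots 3 and 9) were among the arrays that stood apart. Their part in the result was not tested on its own, and without all arrays that stood apart the difference with Copaxone was -0.62 (adjusted p = 3.75e-05). Some T cell markers fell as well: 2 of 7 were called lower with ACN (Cd3d and Cd2), 4 with Glatopa (these and Cd3e and Cd3g) and 2 with Copaxone (Cd3d and Cd2), and none was called higher. The Glatopa call of Cd3e was lost without Media replicate 5 (adjusted p = 0.055) and with all 4 groups in one fit (0.384). That of Cd3g was lost with replicate number as a block (0.17). Cd3d differed from Media by -0.65 with ACN, -0.80 with Glatopa and -0.75 with Copaxone. The part of these markers in the fall of Cxcr3 was not tested. Of 6 NK cell markers, 1 was called higher with ACN (Eomes) and 2 with Glatopa and with Copaxone (Eomes and Klrc1), none was called lower, and the others were not called. Beside both lists, 3.73% of all probes were called higher and 3.36% lower with ACN, 10.3% and 8.56% with Glatopa, and 8.71% and 7.46% with Copaxone. The Klrc1 call with Glatopa was lost without Glatopa lots 1 and 3 (adjusted p = 0.0539 and 0.0516) and without Media replicates 3 and 6 (0.0508 and 0.07). The defining NK marker Ncr1 averaged 4.95 with Copaxone and 4.84 in Media, within 0.12 of the Media level.

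**Figure D2:**
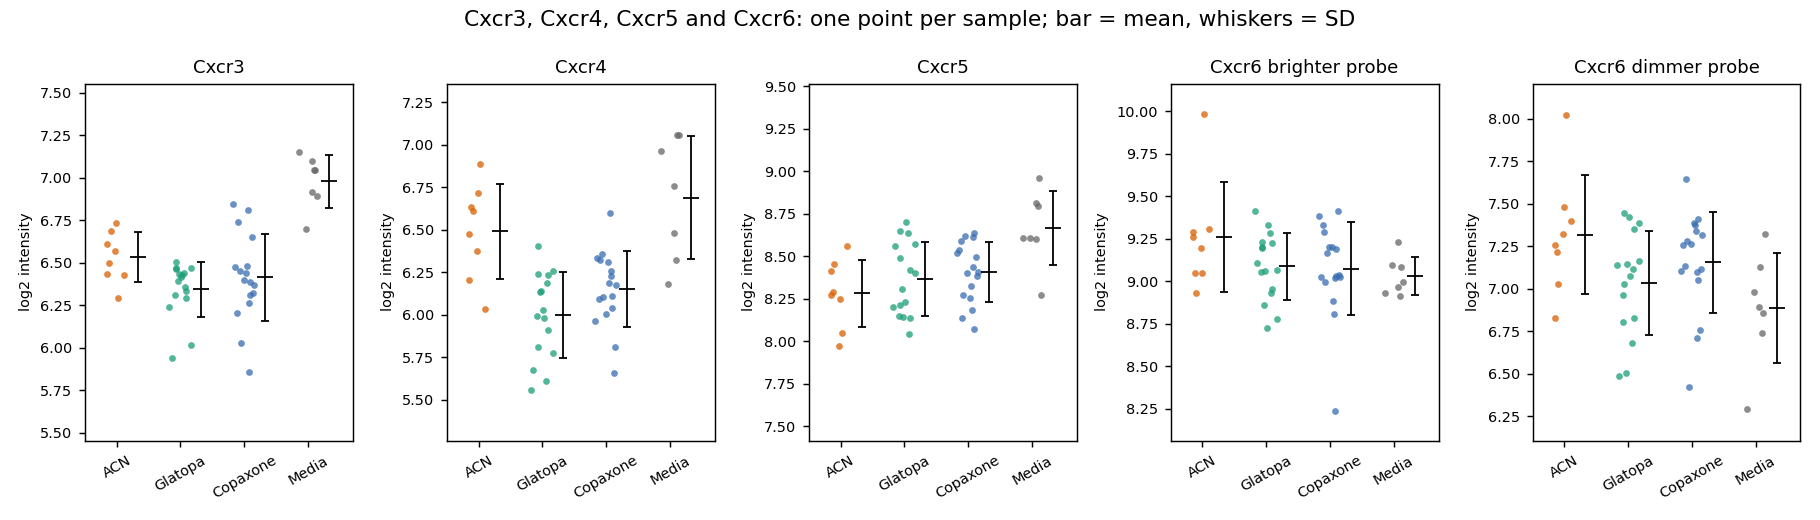
Log2 intensity of Cxcr3, Cxcr4, Cxcr5 and both Cxcr6 probes in every well (points) of ACN, Glatopa, Copaxone and Media, with each group's mean and SD (bar and whiskers); every panel spans the same log2 range. For Cxcr3 the Media wells lie at 6.70 to 7.15 and the Glatopa wells at 5.94 to 6.51 with no overlap; for Cxcr4 the ACN wells (6.03 to 6.89) lie between Media and the other treatments and overlap both.

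Cxcr4, the receptor of Cxcl12 and a retention signal for leukocytes in marrow and lymphoid tissue, fell with Glatopa and Copaxone, and its difference with ACN did not pass the test. The lowest, median and highest log2 values were 6.03, 6.54 and 6.89 in ACN wells, 5.56, 6.01 and 6.40 in Glatopa wells, 5.66, 6.17 and 6.60 in Copaxone wells, and 6.18, 6.76 and 7.06 in Media wells. Below every Media well lay 1 of 8 ACN wells, 11 of 16 Glatopa wells and 9 of 17 Copaxone wells. The difference of Cxcr4 from Media was -0.69 with Glatopa (SE 0.12, 1.62-fold lower, adjusted p = 0.000124) and -0.54 with Copaxone (SE 0.11, 1.45-fold lower, adjusted p = 0.00115). For ACN the difference from Media was -0.20 (95% interval -0.52 to 0.12, adjusted p = 0.592). That interval overlaps the one with Copaxone (-0.77 to -0.30), and both use the same Media wells.

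Between treatments, Cxcr4 was the single receptor probe called: it was higher with ACN than with Glatopa by 0.50 on the log2 scale (SE 0.11, 1.41-fold, adjusted p = 0.0288), and 5 of 8 ACN wells lay above every Glatopa well. Of all probes, 0.68% were called in this comparison and 0.495% were called higher with ACN. The call did not hold when any of 6 libraries or lots was left out: the adjusted p was 0.0565 without ACN replicate 2, 0.0966 without ACN replicate 4, 0.0619 without ACN replicate 7, 0.0601 without ACN replicate 8, 0.0744 without Glatopa lot 1 and 0.102 without Glatopa lot 3, while the difference stayed between 0.44 and 0.56. ACN replicate 4 had the highest Cxcr4 value of its group and also the lowest Cxcr3 value (6.29). Against Copaxone, Cxcr4 was 0.34 higher with ACN (95% interval 0.14 to 0.55), which did not pass the test over all probes (adjusted p = 0.215). Between ACN and Glatopa, 1 of 8 monocyte and macrophage markers (Lyz2) and 1 of 9 neutrophil markers (S100a8) were called higher with ACN and 0 lower, with list medians of 0.17 and 0.14 beside -0.0023 over all probes, and their part in the Cxcr4 difference was not tested. Both marker calls were lost without ACN replicates 1 or 4 and without Glatopa lots 2, 3 or 4, Lyz2 also without Glatopa lot 1 and S100a8 without ACN replicates 7 or 8, with adjusted p up to 0.116.

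The bases before the RefSeq start sites of Cxcr3 and Cxcr4, the receptors with the largest called differences from Media with Glatopa and Copaxone, are shown with motif matches in capitals, both genes on the minus strand of GRCm38.p6. The windows lie at chrX:101734148-101734397 for Cxcr3 and chr1:128592300-128592549 for Cxcr4, 250 bases each, read 5′ to 3′ toward the gene.
Cxcr3: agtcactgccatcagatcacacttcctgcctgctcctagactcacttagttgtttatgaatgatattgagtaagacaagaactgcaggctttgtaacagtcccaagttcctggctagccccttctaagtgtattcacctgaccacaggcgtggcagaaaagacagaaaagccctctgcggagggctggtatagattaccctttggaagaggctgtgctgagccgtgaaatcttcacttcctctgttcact
Cxcr4: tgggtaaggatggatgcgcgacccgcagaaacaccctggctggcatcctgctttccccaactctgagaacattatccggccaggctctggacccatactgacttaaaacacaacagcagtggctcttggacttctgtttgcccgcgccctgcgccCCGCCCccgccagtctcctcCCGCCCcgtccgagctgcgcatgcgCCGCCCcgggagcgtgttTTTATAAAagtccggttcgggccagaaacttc
The motifs were searched on both strands. They were TATAAA of core promoters, the Sp-factor box GGGCGG, the letters AGATAA known from GATA factors, the forkhead core TGTTTAC and the T-box core AGGTGTGA. Cxcr3 held none of them. Cxcr4 held GGGCGG at 3 places, all written here as CCGCCC, and TATAAA in 2 overlapping matches on opposite strands. Of 32817 RefSeq promoter windows of the same length, 32.7% held GGGCGG, 12.4% held TATAAA and 1.12% held AGGTGTGA. A match is a run of letters in this window and says nothing on binding.

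Cxcr5, which guides B cells and follicular helper T cells to Cxcl13 in lymphoid follicles, was lower with all 3 treatments, by smaller amounts. The lowest, median and highest log2 values were 7.97, 8.28 and 8.56 in ACN wells, 8.04, 8.35 and 8.70 in Glatopa wells, 8.07, 8.41 and 8.63 in Copaxone wells, and 8.28, 8.61 and 8.96 in Media wells. The groups overlapped: 4 of 8 ACN wells, 7 of 16 Glatopa wells and 4 of 17 Copaxone wells lay below every Media well. The difference from Media was -0.38 with ACN (SE 0.10, 1.31-fold lower, adjusted p = 0.03), -0.30 with Glatopa (SE 0.09, 1.23-fold lower, adjusted p = 0.0238) and -0.26 with Copaxone (SE 0.08, 1.20-fold lower, adjusted p = 0.03).

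Each of these Cxcr5 calls was lost when some single library or lot was left out. With ACN the adjusted p was 0.0506 without ACN replicate 5, 0.0585 without replicate 6, 0.0508 without replicate 7, and 0.0603, 0.0651 and 0.0636 without Media replicates 1, 3 and 5. With Glatopa it was 0.0632 without Glatopa lot 1, and 0.058, 0.0775 and 0.0575 without Media replicates 1, 3 and 5. With Copaxone it was 0.0541, 0.0536 and 0.0557 without Copaxone lots 1, 5 and 7, and 0.0749, 0.0999 and 0.0739 without Media replicates 1, 3 and 5. B cell markers did not move as one with Cxcr5: of 8 measured, 2 were called higher and 0 lower with ACN, 3 higher and 2 lower with Glatopa, and 2 higher and 1 lower with Copaxone. In either direction, 7.08% of all probes were called with ACN, 18.9% with Glatopa and 16.2% with Copaxone. Ms4a1 (CD20) was higher by 0.92 with ACN, 0.96 with Glatopa and 0.97 with Copaxone. The complement receptor gene Cr2 (CD21) differed from Media by -0.60 with ACN (adjusted p = 0.826), -1.87 with Glatopa and -1.95 with Copaxone. The ACN value was set by ACN replicate 5, at 14.69 on the log2 scale, while the other 7 ACN wells lay at 6.87 to 8.03 and the Media wells at 8.43 to 8.86. Without that well the Cr2 difference with ACN was -1.54 (adjusted p = 7.47e-06), which makes 1 B cell marker lower with ACN in place of 0.

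Cxcr6, the receptor of Cxcl16 on activated and tissue-resident T cells, had no call on either of its probes. On the brighter probe the lowest, median and highest log2 values were 8.93, 9.23 and 9.98 in ACN wells, 8.72, 9.09 and 9.41 in Glatopa wells, 8.24, 9.03 and 9.41 in Copaxone wells, and 8.91, 8.99 and 9.23 in Media wells. The dimmer probe gave 6.83, 7.29 and 8.02 in ACN wells, 6.49, 7.10 and 7.45 in Glatopa wells, 6.42, 7.26 and 7.64 in Copaxone wells, and 6.29, 6.89 and 7.32 in Media wells. All groups overlapped on both probes. The differences from Media on the dimmer probe were 0.43 with ACN (95% interval 0.09 to 0.77, adjusted p = 0.137), 0.15 with Glatopa (-0.13 to 0.42, adjusted p = 0.547) and 0.27 with Copaxone (0.0021 to 0.54, adjusted p = 0.193), and on the brighter probe 0.23, 0.06 and 0.04 for the same treatments in that order. ACN replicate 4 was the highest of its group on both probes. Across the 48 wells the probes of Cxcr6 correlated at r = 0.25, and at r = 0.17 within groups, as a description of wells that share arrays and groups.

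Cxcr1, a neutrophil receptor whose known ligands in human include CXCL8, had a small difference from Media in the same direction with all treatments. Its lowest, median and highest log2 values were 4.70, 4.86 and 5.09 in ACN wells, 4.56, 4.87 and 5.16 in Glatopa wells, 4.60, 4.84 and 5.25 in Copaxone wells, and 4.89, 4.99 and 5.30 in Media wells. Below every Media well lay 5 of 8 ACN wells, 9 of 16 Glatopa wells and 14 of 17 Copaxone wells, and the groups overlapped. The difference was -0.18 with ACN (adjusted p = 0.239), -0.17 with Glatopa (adjusted p = 0.104) and -0.20 with Copaxone (SE 0.07, 1.15-fold lower, adjusted p = 0.0469), called with Copaxone alone, and the treatments did not differ from each other by the test (Glatopa minus Copaxone 0.03, 95% interval -0.07 to 0.14).

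The Cxcr1 call with Copaxone sat at the edge of the threshold. It was lost in 12 of the 16 settings that left out a Copaxone lot or a Media replicate, namely Copaxone lots 1 to 8 and Media replicates 2, 5, 6 and 7, with adjusted p between 0.0106 and 0.147 over all 16 and the difference between -0.23 and -0.16. Some neutrophil markers fell as well: of 9 measured, 3 were called lower with ACN, 6 with Glatopa and 6 with Copaxone, and none higher. Among all probes, 3.36% were called lower with ACN, 8.56% with Glatopa and 7.46% with Copaxone. S100a9 differed from Media by -0.66 with ACN, -0.94 with Glatopa and -0.91 with Copaxone, and Retnlg by -0.54 with ACN, -0.67 with Glatopa and -0.65 with Copaxone. The ACN calls of S100a9 (adjusted p = 0.0392) and Mmp8 (0.0432) were lost in 10 and 11 of the 15 settings that left out a well, with adjusted p up to 0.0883 and 0.0922, and held for both only without ACN replicate 4 or Media replicate 6. Mpo was called with Copaxone but not with Glatopa, and its Copaxone call held under 21 of 27 alternatives. Ltf was called with Glatopa but not with Copaxone, and its Glatopa call held under 16 of 21. The mean log2 level of the 9 neutrophil markers ran from 5.84 to 6.24 in ACN wells, 5.68 to 5.94 in Glatopa wells, 5.74 to 6.02 in Copaxone wells and 6.27 to 6.38 in Media wells. Their part in the Cxcr1 difference was not tested. The other neutrophil receptor, Cxcr2, showed no such difference.

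**Figure D3:**
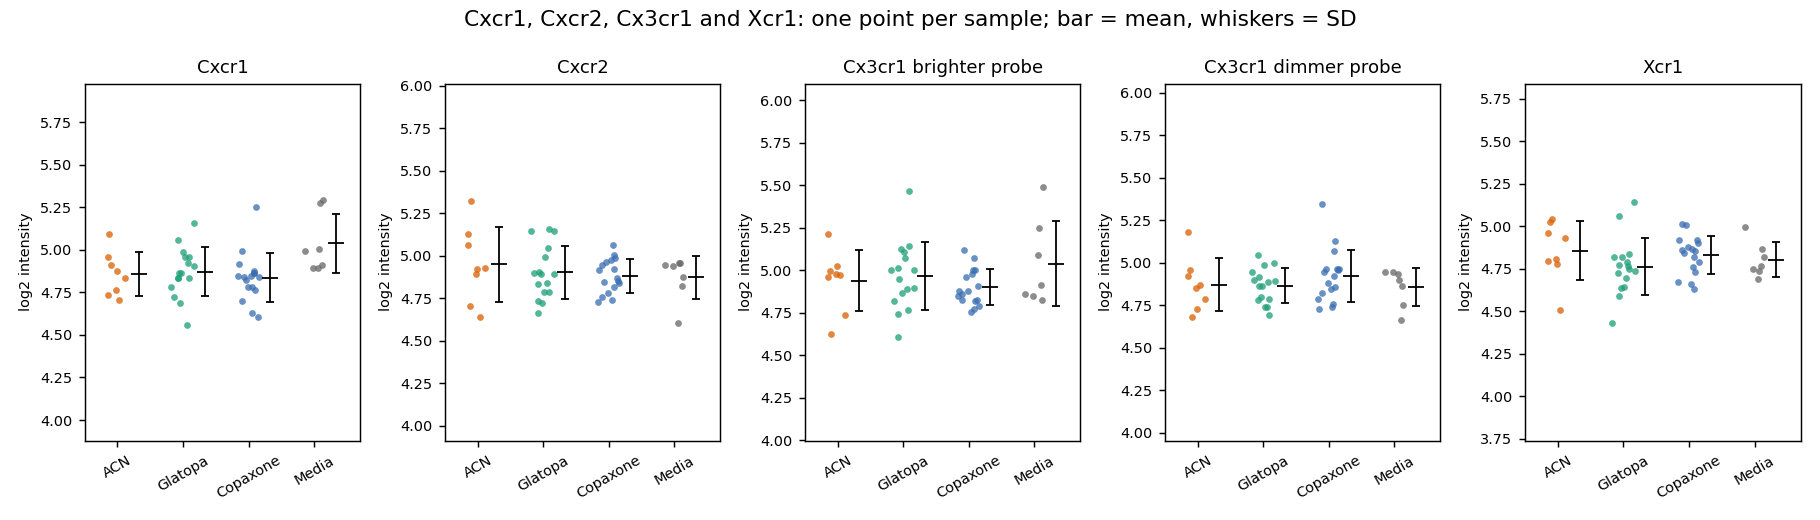
Log2 intensity of Cxcr1, Cxcr2, both Cx3cr1 probes and Xcr1 in every well (points) of ACN, Glatopa, Copaxone and Media, with each group's mean and SD (bar and whiskers); every panel spans the same log2 range. The group means lie between 4.76 and 5.04, and of these panels Cxcr1 alone has a call, Copaxone minus Media at -0.20.

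Cxcr2, the receptor of the neutrophil attractants Cxcl1, Cxcl2, Cxcl3 and Cxcl5, averaged 4.95 ± 0.22 in ACN wells (SD, n = 8), 4.90 ± 0.16 in Glatopa wells (n = 16), 4.88 ± 0.10 in Copaxone wells (n = 17) and 4.87 ± 0.13 in Media wells (n = 7). The differences from Media were 0.08 with ACN (95% interval -0.12 to 0.27), 0.03 with Glatopa (-0.11 to 0.17) and 0.01 with Copaxone (-0.10 to 0.12). None passed the test. Cxcr1, Cxcr2, Cx3cr1 and Xcr1 all lay near the array medians of 4.95 to 5.02, and no detection flag was used here to place them above or below background.

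Cx3cr1, the fractalkine receptor of monocytes and macrophages, had no call on either probe. Its brighter probe averaged 4.94 ± 0.18 in ACN wells (SD, n = 8), 4.96 ± 0.20 in Glatopa wells (n = 16), 4.90 ± 0.11 in Copaxone wells (n = 17) and 5.04 ± 0.25 in Media wells (n = 7), and its dimmer probe averaged between 4.86 and 4.92 in every group. The probes of Cx3cr1 did not follow each other (r = -0.07 over 48 wells). Of 8 monocyte and macrophage markers, 3 (Csf1r, Adgre1 and Fcgr1) were called lower with each treatment and the others were not called, among them Cd14 with differences of 0.27 with ACN, 0.12 with Glatopa and 0.17 with Copaxone. The share of all probes called lower was 3.36% with ACN, 8.56% with Glatopa and 7.46% with Copaxone. Fcgr1 differed from Media by -0.87 with ACN, -0.92 with Glatopa and -0.93 with Copaxone. On the brighter Cx3cr1 probe the difference from Media was -0.10 with ACN (95% interval -0.32 to 0.12), -0.07 with Glatopa (-0.27 to 0.12) and -0.14 with Copaxone (-0.29 to 0.0073).

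Xcr1, the receptor of Xcl1 on type 1 conventional dendritic cells, averaged 4.86 ± 0.17 in ACN wells (SD, n = 8), 4.76 ± 0.17 in Glatopa wells (n = 16), 4.83 ± 0.11 in Copaxone wells (n = 17) and 4.80 ± 0.10 in Media wells (n = 7). The differences from Media were 0.05 with ACN (95% interval -0.11 to 0.22), -0.04 with Glatopa (-0.18 to 0.10) and 0.03 with Copaxone (-0.08 to 0.14), none past the test. The defining dendritic marker Clec9a averaged 4.86 with Copaxone and 4.75 in Media. Of 8 markers of these cells, Batf3 was called higher and Naaa lower with each treatment, and Irf8 higher with Glatopa and Copaxone. The share of all probes called in either direction was 7.08% with ACN, 18.9% with Glatopa and 16.2% with Copaxone. The Naaa call with ACN (-0.33, adjusted p = 0.047) held in 9 of 26 alternatives, and of the settings that left out a well it held only without ACN replicate 3, ACN replicate 8 or Media replicate 6. Batf3 and Irf8 are transcription factors that activated lymphocytes also express.

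Differences among the ligands reached further from 0 than those among the receptors. Of 15 ligand genes, 2 were called higher and 4 lower than in Media with ACN, 3 higher and 4 lower with Glatopa, and 3 higher and 4 lower with Copaxone. Over all probes, 3.73% were called higher and 3.36% lower with ACN, 10.3% higher and 8.56% lower with Glatopa, and 8.71% higher and 7.46% lower with Copaxone. The median ligand difference was -0.10 with ACN, -0.02 with Glatopa and 0.0003 with Copaxone. Of the 15 genes, 9 were not called with ACN, 8 with Glatopa and 8 with Copaxone. Cxcl10 was lower together with its receptor Cxcr3, whereas Xcl1 and Cxcl3 were higher and their receptors Xcr1 and Cxcr2 had no call.

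**Figure D4:**
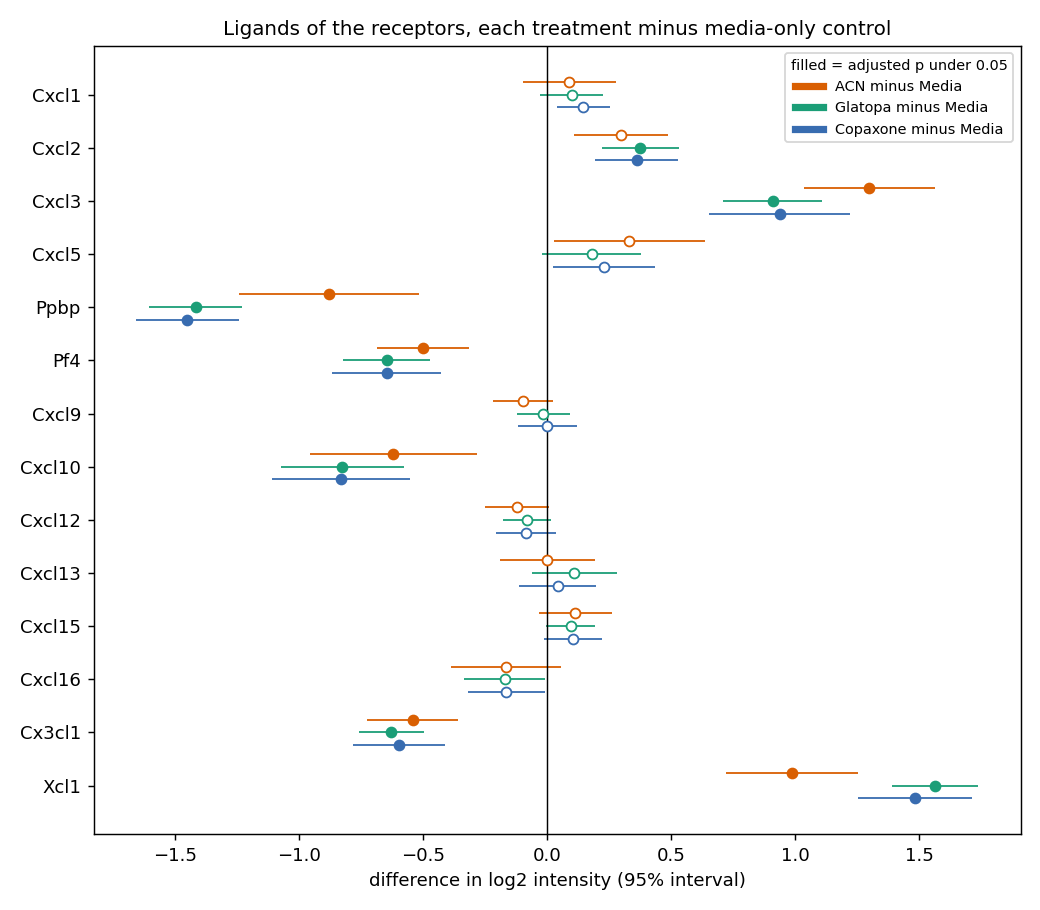
Difference in log2 intensity of 14 ligand genes between each treatment and the media-only control, treatment minus Media, with 95% intervals; filled points have an adjusted p under 0.05, and Cxcl11 is left out because of its spread within groups. Xcl1 and Cxcl3 lie farthest right and Ppbp farthest left. In the separate test of ACN against Glatopa these 3 genes were called, though their wells overlapped. The Cxcl3 and Ppbp calls did not hold under every alternative.

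Xcl1 (lymphotactin), which activated T cells and NK cells secrete toward Xcr1-bearing dendritic cells, had the largest rise among the ligands with Glatopa and Copaxone. Its lowest, median and highest log2 values were 5.38, 6.08 and 6.27 in ACN wells, 6.09, 6.48 and 6.93 in Glatopa wells, 5.78, 6.44 and 7.02 in Copaxone wells, and 4.61, 5.02 and 5.06 in Media wells. No treated well reached down to the Media wells. The difference from Media was 0.99 with ACN (SE 0.13, adjusted p = 8.39e-05), 1.57 with Glatopa (SE 0.08, adjusted p = 3.35e-13) and 1.48 with Copaxone (SE 0.11, adjusted p = 2.2e-10). ACN minus Glatopa was -0.58 (SE 0.10, adjusted p = 0.007), called under all 23 alternatives tried, and ACN minus Copaxone was -0.50 (95% interval -0.75 to -0.25, adjusted p = 0.116), a difference that was called without Copaxone lot 9 (adjusted p = 0.0469).

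Cxcl3, a ligand of Cxcr2, rose with all 3 treatments, and more with ACN than with Glatopa. The lowest, median and highest log2 values were 8.71, 8.94 and 9.24 in ACN wells, 8.07, 8.58 and 8.93 in Glatopa wells, 7.63, 8.65 and 8.98 in Copaxone wells, and 7.06, 7.75 and 7.91 in Media wells. ACN and Glatopa wells lay wholly above the Media wells, and Copaxone wells overlapped them. The difference from Media was 1.30 with ACN (SE 0.12, adjusted p = 3.86e-06), 0.91 with Glatopa (SE 0.10, adjusted p = 7.96e-08) and 0.94 with Copaxone (SE 0.14, adjusted p = 1.5e-05). With ACN it was 0.39 higher than with Glatopa (SE 0.08, adjusted p = 0.0175), a call lost without ACN replicate 4 (adjusted p = 0.0631) and without Glatopa lots 1, 2 and 4 (adjusted p = 0.0613, 0.0589 and 0.0507), and with all 4 groups in one fit (adjusted p = 0.118).

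Ppbp, the platelet precursor of the Cxcr2 ligand NAP-2, fell with all 3 treatments and least with ACN. The lowest, median and highest log2 values were 7.29, 7.70 and 8.65 in ACN wells, 6.97, 7.28 and 7.46 in Glatopa wells, 6.73, 7.27 and 7.41 in Copaxone wells, and 8.13, 8.68 and 9.02 in Media wells. Glatopa and Copaxone wells lay wholly below the Media wells, and ACN wells overlapped them. The difference from Media was -0.88 with ACN (SE 0.17, adjusted p = 0.00364), -1.42 with Glatopa (SE 0.09, adjusted p = 8.43e-12) and -1.45 with Copaxone (SE 0.10, adjusted p = 5.5e-11).

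Ppbp was higher with ACN than with Glatopa by 0.54 (SE 0.11, adjusted p = 0.017) and higher with ACN than with Copaxone by 0.57 (SE 0.12, adjusted p = 0.0403). Without Glatopa lots 1, 3 and 4 the adjusted p against Glatopa was 0.0561, 0.0601 and 0.0845. The call against Copaxone was lost in most settings that left out a library or lot, namely without ACN replicates 2, 4, 5, 6, 7 or 8 and without any of Copaxone lots 1 to 8, with adjusted p up to 0.105 (without ACN replicate 4). It was also lost by the methods' t-test (adjusted p = 0.0804), with an intensity trend (0.0516), without the arrays that stood apart (0.137) and with replicate number as a block (0.311).

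Cxcl10, the interferon-induced ligand of Cxcr3, fell with all 3 treatments. The lowest, median and highest log2 values were 5.76, 6.29 and 6.73 in ACN wells, 5.59, 6.14 and 6.51 in Glatopa wells, 5.34, 6.07 and 6.55 in Copaxone wells, and 6.48, 6.91 and 7.37 in Media wells. The highest wells of each treatment reached into the Media range. The difference from Media was -0.62 with ACN (SE 0.16, adjusted p = 0.0233), -0.83 with Glatopa (SE 0.12, adjusted p = 9.68e-06) and -0.83 with Copaxone (SE 0.13, adjusted p = 4.8e-05). The ACN call was lost without Media replicate 1 (adjusted p = 0.0506) and without Media replicate 7 (adjusted p = 0.0552), by the methods' t-test (adjusted p = 0.0577) and with lot as a random block (adjusted p = 0.196).

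The remaining called ligands, named here after their values were seen, were Cxcl2, Pf4 and Cx3cl1. Cxcl2, a ligand of Cxcr2, rose by 0.38 with Glatopa and 0.36 with Copaxone, and its difference with ACN was 0.30 (adjusted p = 0.0564, or 0.0494, 0.00822 and 0.0418 without ACN replicate 4, Media replicate 1 and Media replicate 3). Pf4, a platelet chemokine, was lower than in Media, with differences of -0.50 with ACN, -0.65 with Glatopa and -0.65 with Copaxone. Cx3cl1 (fractalkine), the ligand of Cx3cr1, was lower than in Media, with differences of -0.54 with ACN, -0.63 with Glatopa and -0.60 with Copaxone. Cxcl12, Cxcl13 and Cxcl16, the ligands of Cxcr4, Cxcr5 and Cxcr6, were not called in any comparison, except that Cxcl16 was called lower without Media replicate 6 with Glatopa (-0.25, adjusted p = 0.0134) and Copaxone (-0.24, adjusted p = 0.0117). Cxcl11 varied far more within groups than between them: its brighter probe ran from 6.44 to 13.18 in ACN wells, 9.29 to 13.13 in Glatopa wells, 4.95 to 13.38 in Copaxone wells and 9.34 to 13.37 in Media wells, its dimmer probe spanned 7.60 to 11.04 in Copaxone wells, and it had no call.

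Atypical chemokine receptors and genes that act after the receptors were measured as 2 lists. The atypical receptors, which take up chemokines without G protein signalling, had 0 of 4 members called against Media with any treatment. Of 21 genes of receptor signalling and desensitization, 1 was called higher and 6 lower with ACN, 2 higher and 7 lower with Glatopa, and 2 higher and 7 lower with Copaxone, and the median difference of the list was -0.08, -0.05 and -0.03 for the same treatments in that order. Of all probes, 7.08% were called in either direction with ACN, 18.9% with Glatopa and 16.2% with Copaxone. RGS proteins shorten G protein signals. Rgs2, Rgs3, Rgs10 and Rgs14 were called lower with every treatment, whereas Rgs1, Rgs18 and Rgs19 had no call. Rgs2 differed from Media by -1.13 with ACN, -1.31 with Glatopa and -1.34 with Copaxone. For Rgs10 the differences were -0.67 with ACN, -0.96 with Glatopa and -0.98 with Copaxone, and for Rgs3 -0.62 with ACN, -0.75 with Glatopa and -0.78 with Copaxone. Averaged over all probes of a symbol these differences were smaller, at -0.56 with ACN, -0.63 with Glatopa and -0.66 with Copaxone for Rgs2 and -0.33 with ACN, -0.35 with Glatopa and -0.39 with Copaxone for Rgs3, and all stayed called. Arrb1, an arrestin that uncouples active receptors, was at -0.53 relative to Media with ACN, -0.70 with Glatopa and -0.69 with Copaxone. In the opposite direction, Rgs16, named after its values were seen, was higher by 0.48 with ACN, 0.74 with Glatopa and 0.68 with Copaxone. Rac2, also named after its values were seen, was the other gene called higher with Glatopa and Copaxone. Its Copaxone call (0.22, limma adjusted p = 0.0381) held under 12 of 26 alternatives, and after cyclic loess the difference was 0.09 (adjusted p = 0.467). With Glatopa the call held under 18 of 20.

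Genes of lymph node homing and recirculation were called against Media in both directions. Of 6 measured, 1 was called higher and 2 lower with ACN, and 1 higher and 3 lower with Glatopa and with Copaxone, beside 7.08%, 18.9% and 16.2% of all probes called in either direction with ACN, Glatopa and Copaxone. S1pr1, the receptor by which lymphocytes leave lymph nodes, differed from Media by -1.09 with ACN, -1.40 with Glatopa and -1.45 with Copaxone. Itgb7, an integrin of gut homing, differed by -1.19 with ACN, -1.32 with Glatopa and -1.27 with Copaxone. Cd69, an activation antigen that holds S1pr1 inside the cell, was higher by 0.52 with ACN, 0.61 with Glatopa and 0.59 with Copaxone. Ccr7, the lymph node entry receptor, differed from Media by -0.72 with ACN (adjusted p = 0.274, and -1.02 with adjusted p = 0.0193 without Media replicate 1), -1.22 with Glatopa and -0.98 with Copaxone.

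Between the treatments, 3 pairs were compared, and the plot of treatment differences shows intervals for every receptor. Glatopa minus Copaxone had 0 receptor probes called by limma, and 0 had an unadjusted p under 0.05. Over all probes 0% were called in that comparison. The largest receptor difference was that of Cxcr4, -0.15 (95% interval -0.32 to 0.0090), followed by the dimmer Cxcr6 probe at -0.12 (-0.33 to 0.08). For Cxcr3 it was -0.07 (-0.22 to 0.08) and for Cxcr5 -0.04 (-0.18 to 0.10), and a p that misses the threshold does not show that the products act alike.

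ACN minus Copaxone also had 0 receptor probes called, with 0.112% of all probes called and 1 receptor probe (Cxcr4) at an unadjusted p under 0.05. For Cxcr3 the difference was 0.12 (95% interval -0.08 to 0.31) and for Cxcr5 -0.12 (-0.28 to 0.03). ACN minus Glatopa gave the Cxcr4 call, and Cxcr3 was 0.19 higher (0.05 to 0.33, adjusted p = 0.247) with 4 of 8 ACN wells above every Glatopa well. ACN is a single lot, so a difference of ACN from either product and a difference of this lot cannot be told apart.

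**Figure D5:**
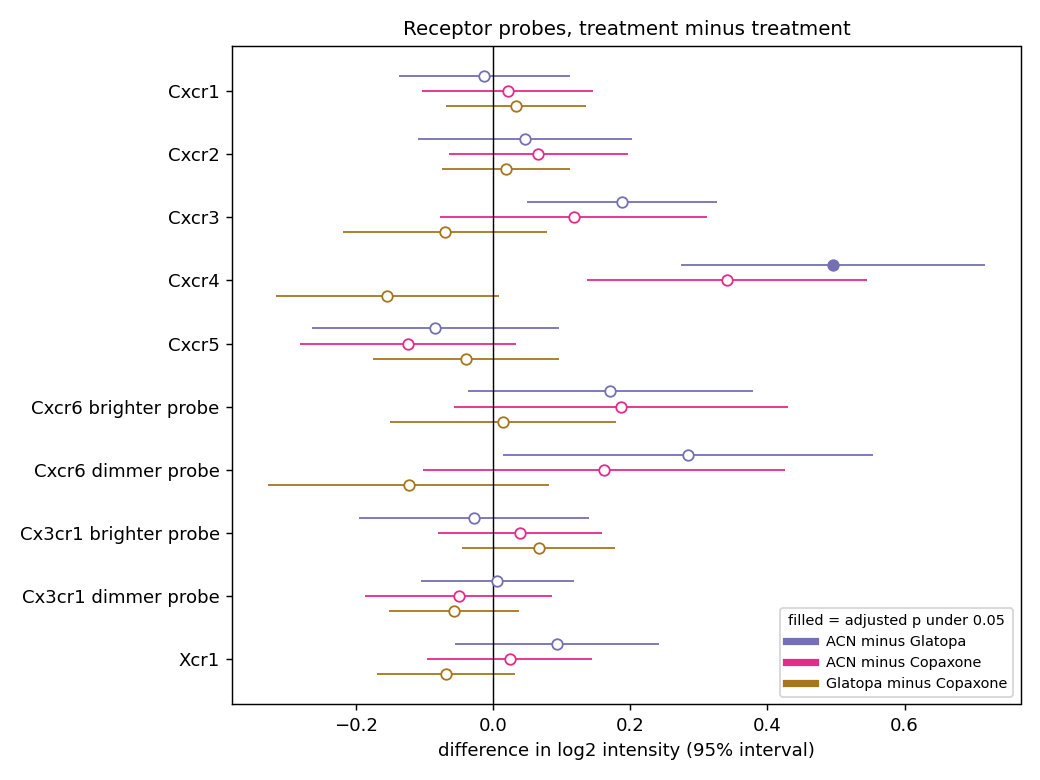
Difference in log2 intensity of each receptor probe between treatments (ACN minus Glatopa, ACN minus Copaxone, Glatopa minus Copaxone), with 95% intervals; filled points have an adjusted p under 0.05. Cxcr4 in ACN minus Glatopa (0.50) is the single filled point.

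The spread between lots of a product was read beside the spread between wells of a lot. For Cxcr3 the lot means ran from 6.27 to 6.41 over 4 Glatopa lots and from 6.25 to 6.70 over 9 Copaxone lots, and for Cxcr4 from 5.90 to 6.15 and from 5.99 to 6.39. The median range between wells of a lot was 0.33 for Cxcr3 and 0.52 for Cxcr4 in Glatopa lots of 4 wells, and 0.20 for Cxcr3 and 0.30 for Cxcr4 in Copaxone lots of 2 wells. The wells of Copaxone lot 3 lay 0.99 apart for Cxcr3, against a range of 0.44 over the Copaxone lot means, and 1 of them was an array that stood apart. Copaxone lot 8 had a single well.

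The genes whose values followed each called receptor most closely over the 48 wells were found by Pearson's r, as a description with no test, since the wells share treatments and arrays. For Cxcr3 they were Ttc7 (r = 0.82, and 0.61 after group means were removed), Plekhm2 (0.80 and 0.56) and Tlr2 (0.80 and 0.46). For Cxcr4 they were Cd9 (0.76 and 0.57), Bhmt (0.75 and 0.60) and Clec4d (0.73 and 0.41). Those nearest Cxcr5 were Vps37b (0.72 and 0.63), Ly6e (0.70 and 0.65) and Akna (0.70 and 0.60), and for Cxcr1 no gene passed r = 0.58 (Strip2).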

How the data were processed

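RNA of 48 wells was hybridized with a single dye (Cy3) to Agilent Mouse GE 4x44K v2 arrays. The deposited values are log2 intensities: the authors subtracted background by normexp (offset 8), then applied log2 and quantile normalization with limma. The version they used is not given in the sources used here. Scanner images, detection flags, slides and scan dates were not used here. Symbols are those of the platform's annotation, and RefSeq records (GRCm38.p6) matched all 10 probes of the 8 receptors and gave promoter windows.

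Repeated spots (387 sets of 10 or more sharing symbol and identifier) were averaged, which left 39430 probes of 43020 spots. Each pair of groups was fitted without the others (lmFit, then eBayes), two-sided, using limma 3.58.1, R 4.3.3 and the data.table package 1.17.8, with Benjamini-Hochberg over all probes and no filter on low values. A list gene stands for its probe with the highest mean, and 92 of 97 list genes were measured. The fit was tested on simulated data.

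All receptor probes are named, with up to 4 genes per list of largest difference among those called with Copaxone against Media, and ligands called between treatments. Other list genes named were chosen after their values were seen. Receptors, lists and rules were chosen with earlier results of these data known. Alternatives were all 4 groups in one fit, the methods' t-test, an intensity trend with a robust prior, cyclic loess, lot as a random block, replicate number as a block, brighter probes only, the first within-group component as a covariate, omission of arrays with scores above 0.3 on it, single spots, 1 mean per gene symbol, and each replicate or lot left out. No depth applies to arrays. The intervals are 95% intervals of limma.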

Additional observations from a re-analysis of the deposited data

Results flagged for a closer look

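Groups of 4 to 10 wells were searched for a highest or lowest well set far from the rest by Dixon's gap over range, which chance flags in about 1 of 20 groups. Of 20 such groups (10 receptor probes in ACN and in Media), 2 held one. On the brighter Cxcr6 probe, ACN replicate 4 had a log2 value of 9.984 and the nearest ACN well 9.309, a gap of 0.641 of the range. For Cxcr2, Media replicate 1 had a log2 value of 4.606 and the nearest Media well 4.822, a gap of 0.612 of the range. Cxcr4 differed between ACN and Glatopa by 0.4951 on the log2 scale in the test of that difference (limma adjusted p = 0.0288).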

How the results depend on the processing

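The count of receptor probes called with Copaxone against Media was 4, and it was 0 with the replicate block, 2 without the arrays that stood apart, and 2 to 4 with a lot or replicate left out. With ACN against Media it was 2, and it was 1 by the methods' t-test, 1 with lot as a random block, and 1 to 2 with a replicate left out. For ACN against Glatopa it was 1, and it was 0 by the methods' t-test, with the replicate block and without the arrays that stood apart, and 0 to 1 with a replicate or lot left out. The cause of these changes was not tested, except that settings that leave out samples hold fewer of them. The replicate block also lets fewer wells bear on a difference. Copaxone wells are numbered 1 and 2 only, so with it their difference from Media rests on Media replicates 1 and 2. For ACN against Glatopa it rests on replicates 1 to 4 of each. Counts for Glatopa against Media (2 to 3 with a sample or lot left out), Glatopa against Copaxone (0) and ACN against Copaxone (0) stayed within 1.5 times under every alternative run.

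The deviations of same-numbered wells correlated at -0.467 to 0.178 over the 6 comparisons, so none was strongly positive. Whether the numbers stand for a shared step, such as a slide, was not tested. With the replicate block the Cxcr3 difference between Copaxone and Media was -0.60 (limma adjusted p = 0.0609) and the Cxcr4 difference -0.47 (0.102). Both rest on Media replicates 1 and 2 alone. Cxcr3 was called with Glatopa and with ACN against Media under all 21 and 26 alternatives. Of single receptor values, 588 were the same and 14 lost their call under other settings, 806 and 34 with a sample or lot left out, and no call changed direction. The signal over background of the dim receptors was not used here.

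Among the list genes, the replicate block ended the Copaxone calls of Ccr7 (-0.19, adjusted p = 0.909), Klrc1 (0.08, 0.811) and Cxcl2 (0.26, 0.318) and the ACN call of Cxcl10 (-0.58, 0.0923). Those Copaxone differences rest on Media replicates 1 and 2 alone. Random lot effects, with a single lot of ACN, also ended the ACN calls of Ppbp, Adgre1, Arrb1, Arrb2, Mmp8, Ms4a1, Retnlg, Rgs3, Rgs16, S100a9 and Naaa, with adjusted p between 0.0504 (Rgs3) and 0.325 (Naaa). With 1 mean per gene symbol the Klrc1 calls with Glatopa (adjusted p = 0.0592) and Copaxone (0.0859) and the Adgre1 call with ACN (0.0608) were lost, and the differences of Csf1r were -0.24 with ACN, -0.43 with Glatopa and -0.47 with Copaxone and of Eomes 0.48 with ACN, 0.45 with Glatopa and 0.51 with Copaxone. Over all alternatives, 7623 values of list genes were the same, 163 lost and 69 gained a call, and none changed direction with a call.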
